A study of Mus musculus with 94 samples.

Results

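Malat1, Neat1, Meg3, Miat, Snhg11 and Rian are long RNAs that code for no known protein and are kept mainly in the cell nucleus. Their levels were taken from arrays of mouse brain as every probe set that the platform annotation gives to 1 of these genes alone, which makes 28 of the 45101 probe sets on the array. The 28 probe sets are 7 for Malat1, 2 for Neat1, 11 for Meg3, 2 for Miat, 2 for Snhg11 and 4 for Rian. The genes were chosen by values of the MAM comparisons. Malat1 had been seen to be higher after MAM in Mgmt-/- brains at 6 hr and 48 hr and to differ in wt brains at 48 hr, and the other 5 genes came from a list of nuclear RNAs whose shift in wt brains at 48 hr was known. The MAM values below are therefore a description, without a test, and tests are given for genotype, time and animal-number set in vehicle brains. Vehicle arrays were 1 side of those MAM comparisons, so that the tests in vehicle brains are not fully free of the choice.

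The study asked how the brain transcriptome of mice with and without the DNA repair gene Mgmt responds to methylazoxymethanol (MAM), the genotoxin released from the cycad compound cycasin. Male C57BL6 mice, 11 weeks old, were Mgmt-/- on that background or wt, and received a single intraperitoneal injection of MAM acetate at 20 mg/kg or of the vehicle alone, dilute acetic acid in saline. RNA of the right hemisphere of each brain, from 1 animal per array, was hybridised to the Affymetrix Mouse Genome 430 2.0 array 6, 24, 48 or 168 hr later, and the protocol was run at 2 laboratories. The 16 groups were Mgmt-/- MAM, wt MAM, Mgmt-/- vehicle and wt vehicle at each of the 4 times, with 6 animals each except 5 in wt MAM at 168 hr and in wt vehicle at 48 hr. The tissue mixes all cell types, so that fewer cells of a type and less RNA per cell cannot be told apart. Animal numbers fall into 2 sets, the 100s and 300s (number set 1) and the 700s and 900s (number set 2). The number sets were taken as the 2 laboratories, and the sources do not say which set came from which laboratory.

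In mammals Malat1 is an abundant RNA of nuclear speckles, the bodies that store splicing factors, and Neat1 is the RNA scaffold of paraspeckles, which hold RNA-binding proteins and edited RNAs. Meg3 and Rian are transcribed from the maternal copy of the imprinted Dlk1-Dio3 locus, where Rian hosts many small nucleolar RNAs. Miat, also called Gomafu, is a nuclear RNA found in neurons, and Snhg11 is a host gene of small nucleolar RNAs that is expressed in neurons. In the GRCm38.p6 annotation Malat1 and Neat1 lie on chromosome 19 with 1 annotated gene between them, and Meg3 and Rian lie on chromosome 12 with 19 annotated genes, mostly microRNAs, between them.

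The promoters of 3 members that moved in different ways below are shown, each from 250 bases before to 50 bases after the annotated start, from RefSeq on GRCm38.p6. Malat1 (chr19:5802623-5802922, minus strand) is the gene whose probe sets differed in direction after MAM, Meg3 (chr12:109540746-109541045, plus strand, the first of its 2 annotated starts) is the gene with the most probe sets, and Rian (chr12:109603695-109603994, plus strand) is its neighbour in the same imprinted locus. Capitals mark matches, on either strand, to the cAMP response element TGACGTCA, the TATA box TATAAA and the CCAAT box CCAAT.
Malat1: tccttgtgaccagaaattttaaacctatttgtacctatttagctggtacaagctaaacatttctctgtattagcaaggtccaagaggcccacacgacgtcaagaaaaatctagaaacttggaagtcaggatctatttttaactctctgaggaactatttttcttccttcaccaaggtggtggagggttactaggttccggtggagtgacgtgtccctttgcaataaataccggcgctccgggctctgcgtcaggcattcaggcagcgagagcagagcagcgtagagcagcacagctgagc
Meg3: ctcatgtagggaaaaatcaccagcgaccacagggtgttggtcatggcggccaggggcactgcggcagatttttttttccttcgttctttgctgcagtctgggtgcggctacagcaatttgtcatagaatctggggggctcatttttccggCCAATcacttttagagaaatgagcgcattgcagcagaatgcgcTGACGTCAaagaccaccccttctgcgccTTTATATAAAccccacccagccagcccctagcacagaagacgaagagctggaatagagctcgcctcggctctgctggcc
Rian: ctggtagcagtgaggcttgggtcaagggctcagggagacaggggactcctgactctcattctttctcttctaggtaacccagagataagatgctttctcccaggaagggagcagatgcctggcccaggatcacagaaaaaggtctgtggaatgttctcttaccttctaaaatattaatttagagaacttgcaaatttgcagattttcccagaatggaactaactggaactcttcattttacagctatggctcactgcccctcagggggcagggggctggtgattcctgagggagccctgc
The Meg3 window holds 1 TGACGTCA, 1 CCAAT and 2 overlapping TATAAA matches on opposite strands. The Malat1 and Rian windows hold none of these letters. Of 32851 mouse promoters of the same length, 1.79% hold TGACGTCA, 13.6% hold TATAAA and 37.4% hold CCAAT. The Rian window has a GC content of 49.3% and 0 CpG dinucleotides, against 10 CpG dinucleotides in the Malat1 window and 13 in the Meg3 window. The matches were not set against the measurements. The Miat and Snhg11 windows were matched too and hold none of the 3 motifs, and Neat1 is named only.

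The array values are log2 intensities, so that a difference of 1 is a factor of 2. A level is compared only within a probe set, because each probe set binds its target with its own strength, and the names ending in _s_at, _x_at or _a_at mark probe sets whose probes can be shared between transcripts. The array MGMT.MAM.168.343, labelled Mgmt-/- MAM at 168 hr, carried liver RNA. Its neuronal markers averaged 4.77, against 11.33 to 11.91 on the other 93 arrays, and its liver markers averaged 13.58, against 4.41 to 7.19. It was left out of all that follows unless stated, which leaves 5 animals in that group. The single Mgmt probe set ran between 5.09 and 6.45 in Mgmt-/- brains and between 5.49 and 6.21 in wt brains, so that it did not separate the genotypes. The position of its probes relative to the deleted part is not known here. As a sign of RNA quality, a 3'/5' index was taken as the mean log2 difference between 3' and 5' control probe sets of Gapdh and beta-actin, which grows as RNA is degraded.

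All 6 RNAs were abundant in the brain. Over their brightest probe sets, group means spanned from 0.68 for Snhg11 to 1.58 for Malat1 on the log2 scale. The brightest probe set of each gene, by its mean over the 93 arrays, was 1418189_s_at for Malat1 at 10.67, 1428083_at for Neat1 at 8.67, 1439380_x_at for Meg3 at 10.86, 1455325_at for Miat at 8.63, 1434292_at for Snhg11 at 10.69 and 1452899_at for Rian at 9.16. Malat1 1418189_s_at spread the most, with group means between 9.77 ± 0.34 in Mgmt-/- MAM at 168 hr (SD, n = 5) and 11.35 ± 0.80 in wt vehicle at 6 hr (SD, n = 6). Its median SD within groups was 0.77. Rian 1452899_at ran between 8.58 ± 0.54 in Mgmt-/- MAM at 24 hr and 9.76 ± 0.42 in wt vehicle at 168 hr (SD, n = 6 each). The wt vehicle brains at 24 hr had the lowest group mean of 4 genes. In that group Neat1 1428083_at averaged 8.26 ± 0.24, Meg3 1439380_x_at 10.49 ± 0.23, Miat 1455325_at 8.25 ± 0.30 and Snhg11 1434292_at 10.40 ± 0.24 (SD, n = 6). The highest group means of these 4 probe sets were 9.02 ± 0.31 for Neat1 in Mgmt-/- vehicle at 24 hr, 11.25 ± 0.38 for Meg3 in Mgmt-/- MAM at 6 hr, and 9.03 ± 0.43 for Miat and 11.08 ± 0.50 for Snhg11 in wt MAM at 168 hr. When the 16 groups were ordered by mean, all 15 neighbouring pairs overlapped in their arrays for each of the 6 probe sets. Ordering by mean makes neighbours alike, so that nothing is read from this overlap.

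**Figure D1:**
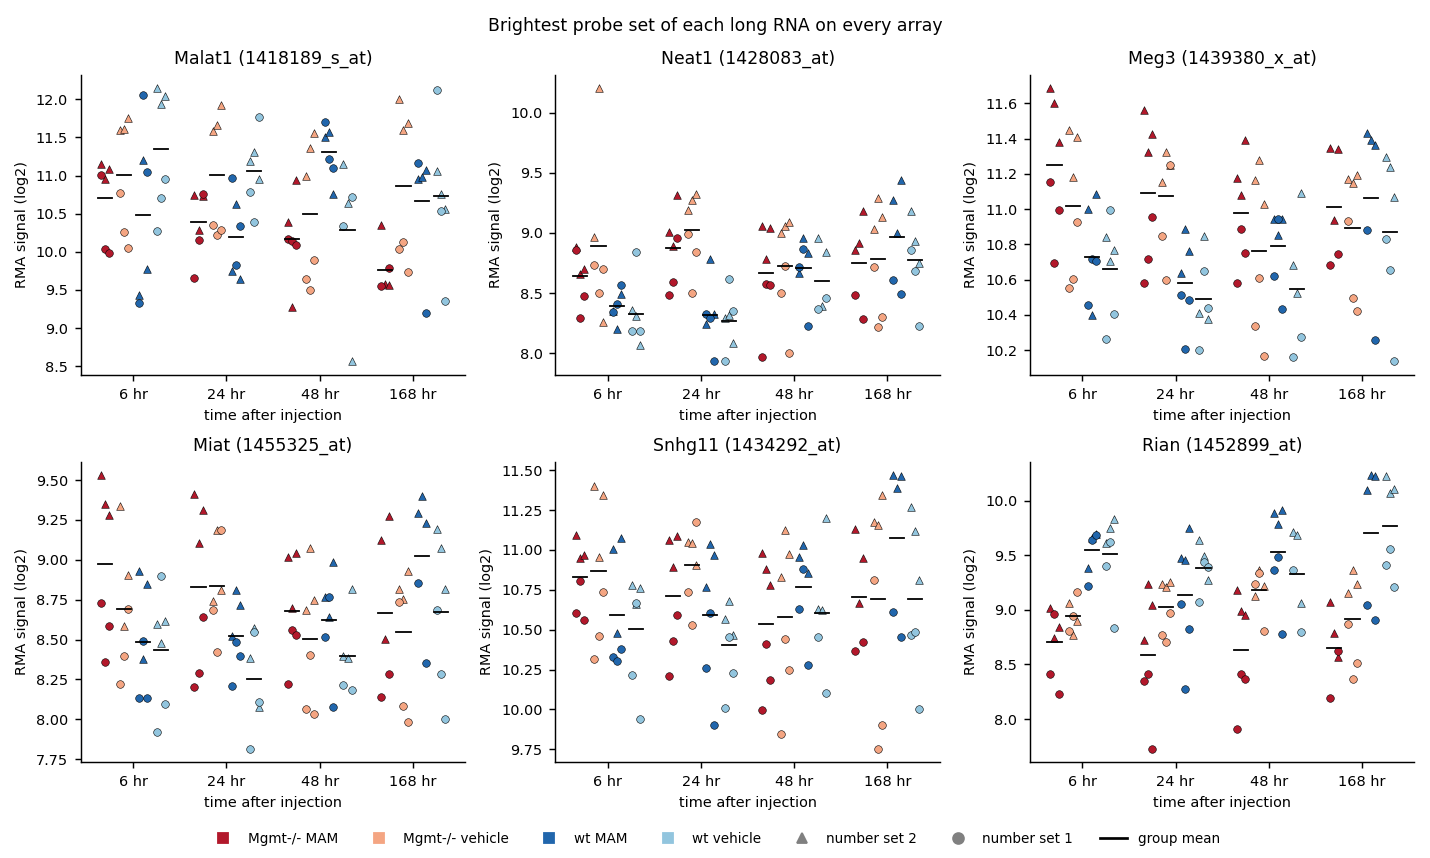
Log2 intensity of the brightest probe set of each of the 6 genes on every array, by group of genotype, agent and time after injection, with 1 point per animal (triangles for number set 2, circles for number set 1) and the group mean as a line. Malat1 has the widest spread within groups.

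The most uniform difference in these RNAs, with the largest median over the 28 probe sets, lay between the 2 number sets of vehicle brains, where no MAM was given. All 28 probe sets were higher in number set 2 than in number set 1, by a median of 0.56 and between 0.18 and 1.12 on the log2 scale. A probe set was called where limma's adjusted p was below 0.05 and the fold change was above 1.3. Of the 28 probe sets, 21 were called, all higher in number set 2, beside 1.07% of all 45101 probe sets called in either direction and 0.412% called higher. Of all calls on the array, 186 were higher and 298 lower in number set 2. The 7 members that were not called had differences of 0.18 to 0.38 and adjusted p of 1.9e-05 to 0.014 by limma, so that the fold limit alone kept them out. They were both Neat1 probe sets, Rian 1452899_at and 1427580_a_at, Meg3 1436057_at, Malat1 1436202_at and Miat 1458903_at.

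Malat1, the speckle RNA, was among the genes with the largest difference on the whole array. Its probe set 1427285_s_at was 1.06 higher in number set 2 (SE 0.10, limma adjusted p = 3.0e-10), and in both genotypes. In Mgmt-/- vehicle brains it had a lowest, median and highest value of 6.40, 6.94 and 7.70 in number set 2, against 5.21, 5.95 and 6.41 in number set 1 (n = 12 each). Of the 12 number set 2 arrays, 11 lay above every number set 1 array. In wt vehicle brains the values were 6.18, 7.23 and 7.87 in number set 2 (n = 12), against 5.83, 6.35 and 6.73 in number set 1 (n = 11). The brightest Malat1 probe set, 1418189_s_at, was 0.96 higher (SE 0.18, limma adjusted p = 1.3e-04), and here the genotypes parted. In Mgmt-/- vehicle brains its lowest, median and highest values were 10.99, 11.60 and 12 in number set 2, against 9.50, 10.09 and 10.77 in number set 1, with no overlap. In wt vehicle brains they were 8.56, 11.10 and 12.15 in number set 2, against 9.35, 10.71 and 12.12 in number set 1, so that the sets lay over each other.

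Snhg11 had the largest difference of all members, in its dimmer probe set 1437311_at, at 1.12 (SE 0.12, limma adjusted p = 1.9e-08). In Mgmt-/- vehicle brains its values were 10.06, 10.28 and 10.55 in number set 2, against 8.10, 8.89 and 9.21 in number set 1, with no overlap, and in wt vehicle brains they were 8.04, 9.71 and 10.04 in number set 2, against 7.71, 8.75 and 9.80 in number set 1. Its brighter probe set 1434292_at was 0.61 higher. By size among the called probe sets that name 1 gene, Snhg11 1437311_at stood 5th, Malat1 1427285_s_at 7th and Malat1 1418189_s_at 9th. Among the largest differences on the array were also genes of the olfactory bulb that were lower in number set 2, named after their values were seen. S100a5 fell by 1.75 and Cdhr1, a cadherin of its projection neurons, by 1.66, and the part of these genes' tissue in the members' difference was not tested. Of the other Malat1 probe sets, 1418188_a_at was 0.91, 1438403_s_at 0.77, 1452378_at 0.57 and 1429060_at 0.48 higher. Of the 11 Meg3 probe sets, 10 were called, and they moved by like amounts. The differences were 0.77 for 1428764_at, 0.76 for 1452906_at and 1429257_at, 0.72 for 1452905_at, 0.62 for 1428765_at, 0.59 for 1426758_s_at, 0.55 for 1429256_at, 0.52 for 1436713_s_at, 0.50 for 1452183_a_at and 0.48 for 1439380_x_at. Miat 1455325_at was 0.42 higher, and of the Rian probe sets 1440001_at was 0.59 and 1428055_at 0.47 higher.

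**Figure D2:**
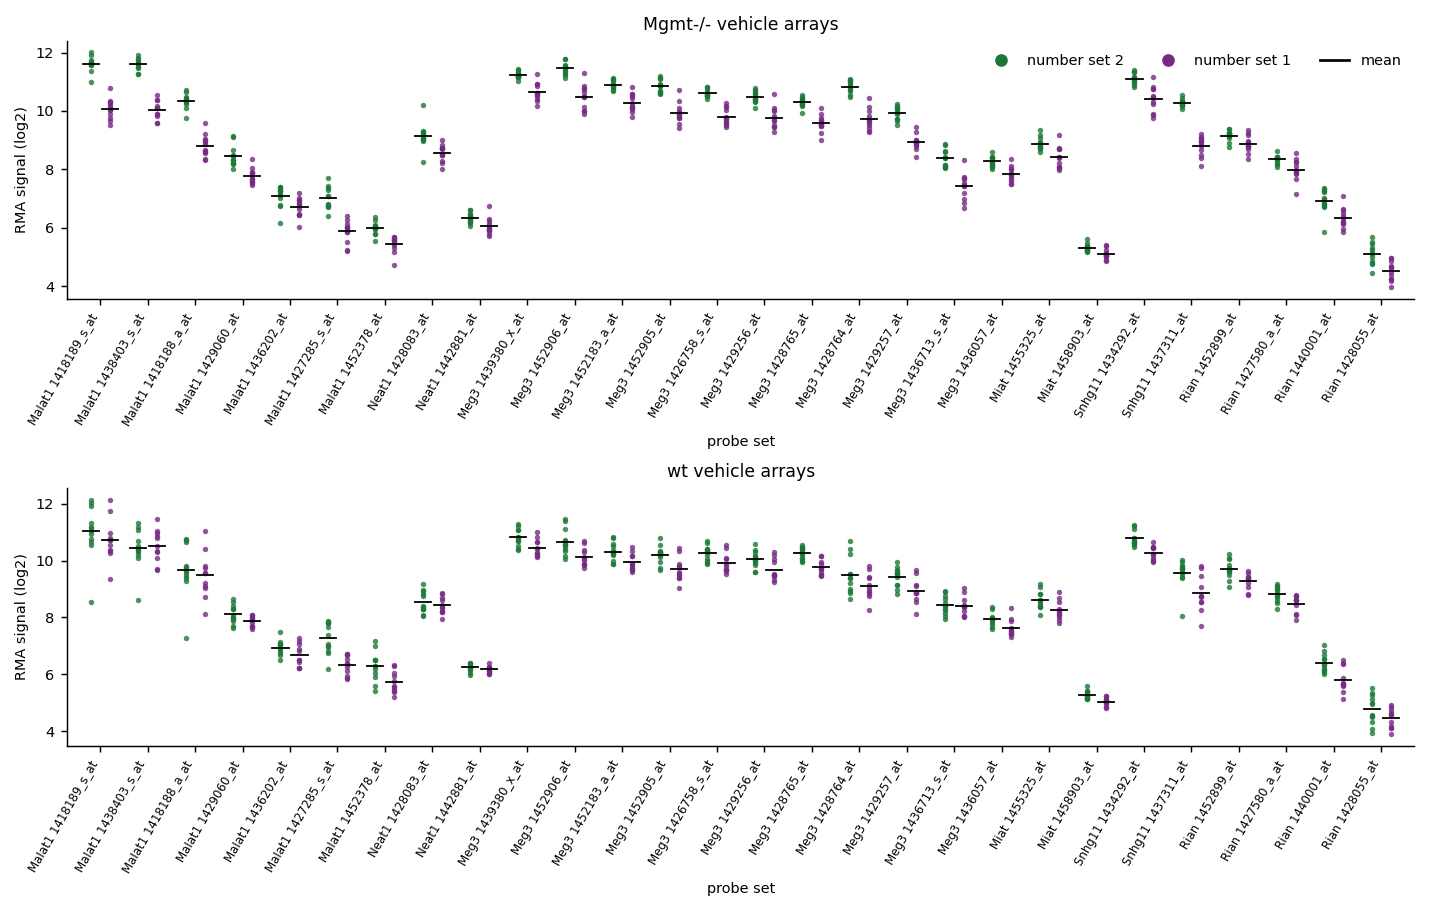
Log2 intensity of each of the 28 probe sets on every vehicle array, with Mgmt-/- above and wt below, number set 2 (green) left of number set 1 (purple), 1 point per animal and the mean as a line. Number set 2 lies above number set 1 for all 28 probe sets by the mean over both genotypes, and the gap of Malat1 1418189_s_at, 1418188_a_at and 1438403_s_at is wide in Mgmt-/- and narrow in wt brains.

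The gap between number sets depended on the genotype for part of the probe sets. This test was chosen after the values of both sets had been seen. The difference between number sets was larger in Mgmt-/- than in wt vehicle brains for 7 of the 28 probe sets that limma called, beside 3.02% of all probe sets. They were 3 of Malat1, 3 of Meg3 and 1 of Snhg11. For Malat1 1438403_s_at the fitted difference of number set 2 from number set 1 was 1.55 in Mgmt-/- and -0.05 in wt brains. The gap between these was 1.60 (SE 0.25, limma adjusted p = 1.3e-04). Its values were 11.27, 11.61 and 11.91 in number set 2 of Mgmt-/- vehicle brains, against 9.58, 10.11 and 10.55 in number set 1, and in wt vehicle brains 8.61, 10.42 and 11.32 in number set 2, against 9.68, 10.52 and 11.47 in number set 1. Malat1 1418188_a_at and 1418189_s_at gave 1.29 (SE 0.32) and 1.18 (SE 0.32). Meg3 1436713_s_at gave 0.94, Meg3 1428764_at 0.72, Meg3 1426758_s_at 0.44 and Snhg11 1437311_at 0.74. For 7 members every number set 2 array lay above every number set 1 array in Mgmt-/- vehicle brains, beside 0.169% of all probe sets. Neat1, Miat and Rian had no call in this comparison.

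Other values moved with the number set. In Mgmt-/- vehicle brains the 3'/5' index averaged 0.437 ± 0.034 for number set 2 and 0.507 ± 0.112 for number set 1 (SD, n = 12 each), and in wt vehicle brains 0.350 ± 0.046 for number set 2 (SD, n = 12) and 0.321 ± 0.027 for number set 1 (SD, n = 11). Proteins of nuclear speckles went with the members in part. Of 25 such genes on the array, 6 were called higher in number set 2 and 0 lower, among them the splicing factors Rbm39 at 0.63, Rbm25 at 0.62 and Srsf11 at 0.44. The list median was 0.06, against -0.02 over the brightest probe set of every gene. Of 34 other long noncoding RNAs, Gas5 was higher at 0.51 and Dlx6os1 fell by 0.42, and 1 of 22 paraspeckle proteins, Rbmx, was higher at 0.40. Of 13 nuclear RNA decay factors, Pabpn1 was higher at 0.44, and none of 3 other Dlk1-Dio3 genes on the array was called. Of the cell type markers, the neuronal Syt1 was higher at 0.42, the only call among 8 neuronal markers, whose mean log2 level over the list was 11.50 in number set 2, against 11.58 for number set 1. The microglial P2ry12 fell by 0.57 and the endothelial Vwf fell by 0.60, and the means of their lists, of 5 genes each, differed by -0.25 and -0.30. The part of RNA quality or of these cell types in the members' difference was not tested.

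Over both number sets, some Meg3 probe sets, Neat1 and Snhg11 were higher in Mgmt-/- than in wt vehicle brains at 24 hr, and Rian was lower in Mgmt-/- brains at 6 hr and 168 hr. Probe sets whose effects differed between the number sets were set aside first, a step taken over with its threshold from the methods described for these arrays. This removed 13, 19, 14 and 5 of the 28 at 6, 24, 48 and 168 hr. Of all probe sets on the array, 39.3%, 47.9%, 78.8% and 71% were kept at these times. Of the members kept, 4 of 15 were called at 6 hr, beside 3.57% of all probe sets kept. At 24 hr 5 of 9 were called, beside 4.21%. At 48 hr limma called 0 of 14, beside 3.01%, with a smallest adjusted p of 0.087 and 0 called by the ordinary linear model. At an unadjusted p below 0.05 there were 2 of 14 at 48 hr, beside 17.3% of all probe sets kept. At 168 hr 1 of 23 was called, beside 0.0874%. The counts differed between the number sets taken alone. Number set 1 alone gave 0, 1, 1 and 3 calls at the 4 times and number set 2 alone 12, 17, 10 and 3. The share of all probe sets called in each set alone is not given here, so that these counts do not set the members apart. In number set 1 alone the signs of the 4 probe sets called at 6 hr and of the 5 at 24 hr stayed, but limma's adjusted p were 0.055 to 0.52 at 6 hr and 0.13 to 0.35 at 24 hr. Rian 1427580_a_at at 168 hr was called in each set alone.

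The maternal RNA Meg3 gave 3 of the 5 calls at 24 hr. Meg3 1452905_at had a lowest, median and highest value of 9.87, 10.69 and 11.12 in Mgmt-/- vehicle brains, against 9.04, 9.71 and 10.11 in wt vehicle brains (n = 6 each), a difference of 0.94 (SE 0.16, limma adjusted p = 4.2e-04). The groups overlapped in their outer values only. Meg3 1429256_at was 0.66 and 1439380_x_at 0.58 higher. Neat1 1428083_at, of the paraspeckle scaffold, had 8.50, 9.09 and 9.32 in Mgmt-/- vehicle brains, against 7.93, 8.30 and 8.62 in wt vehicle brains, a difference of 0.76 (SE 0.13, limma adjusted p = 5.7e-04). It was higher in both number sets, by 1.04 in number set 2 and 0.48 in number set 1. Snhg11 1434292_at had 10.53, 10.97 and 11.18 in Mgmt-/- vehicle brains, against 10.01, 10.46 and 10.68 in wt vehicle brains, a difference of 0.50 (limma adjusted p = 0.011). The set-aside Meg3 1428764_at differed the most at 24 hr, by 1.51, with a gap between the groups and a size that varied between number sets.

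Rian, which shares the imprinted locus with Meg3, went the other way in its 2 brightest probe sets. At 6 hr Rian 1452899_at had 8.77, 8.92 and 9.17 in Mgmt-/- vehicle brains, against 8.83, 9.62 and 9.83 in wt vehicle brains, and fell by 0.57 (SE 0.14, limma adjusted p = 0.0094). Rian 1427580_a_at fell by 0.55 at 6 hr. At 168 hr it had 7.17, 8.17 and 8.43 in Mgmt-/- vehicle brains, against 8.45, 8.90 and 9.17 in wt vehicle brains, with no overlap, and fell by 0.86 (SE 0.12, limma adjusted p = 0.0020). The dim Rian probe set 1440001_at differed in the other direction at all 4 times, by 0.32 to 0.83, without a call. Meg3 was not uniform either. At 6 hr 1452906_at was higher, with 10.48, 10.93 and 11.78 in Mgmt-/- vehicle brains, against 9.88, 10.64 and 10.72 in wt vehicle brains, a difference of 0.60 (SE 0.16), while 1436713_s_at fell by 0.62 (SE 0.18). Among the probe sets kept by the filter, none of Malat1 or Miat was called for genotype at any time. Those set aside had no test, so that a missing call there does not mean a missing difference. Malat1 1418189_s_at differed by -0.34, -0.06, 0.24 and 0.13 at 6, 24, 48 and 168 hr, less than its SD within groups.

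**Figure D3:**
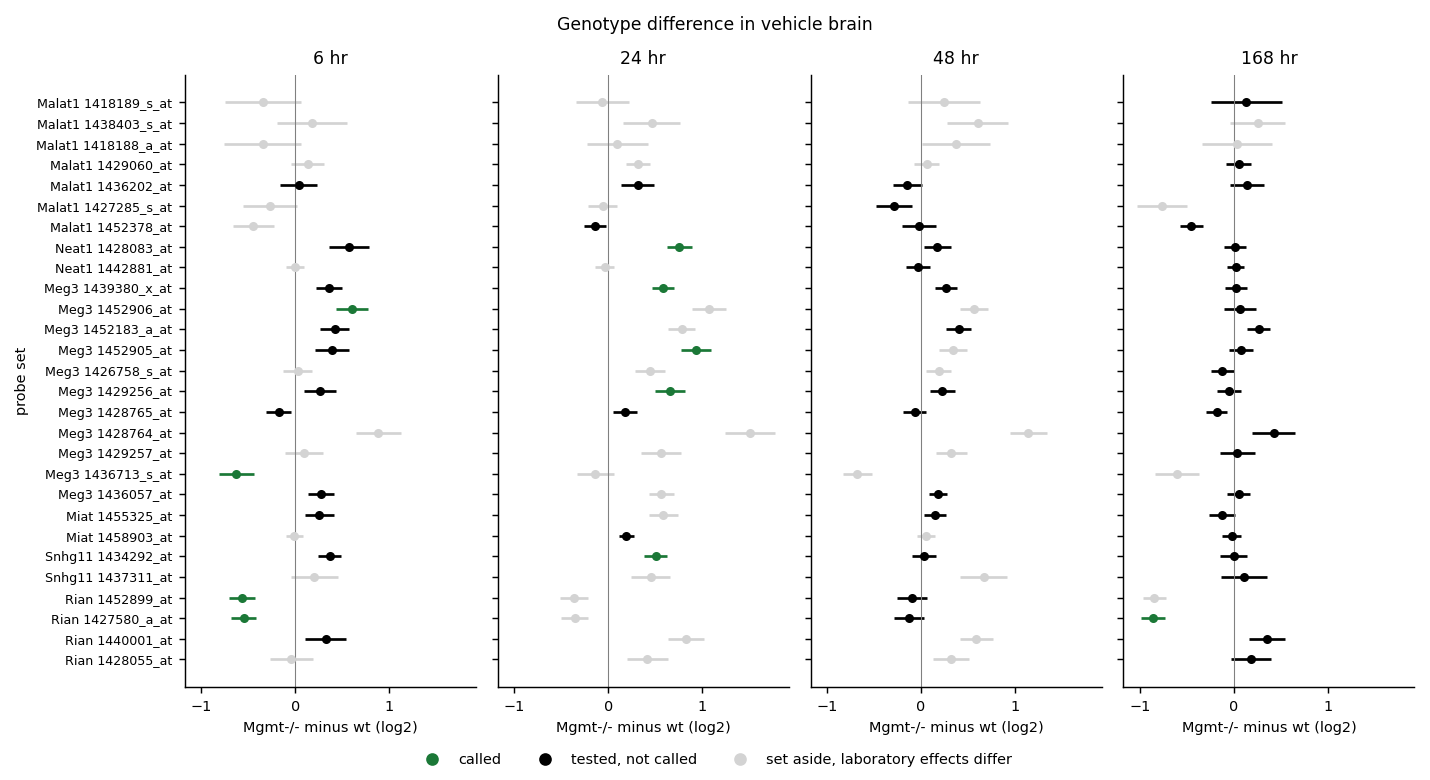
Difference between Mgmt-/- and wt vehicle brains in log2 intensity for the 28 probe sets at 6, 24, 48 and 168 hr, as points with their standard errors, where values right of 0 are higher in Mgmt-/-, green points were called and grey points were set aside. Meg3 lies mostly to the right at 24 hr, and the Rian probe sets 1452899_at and 1427580_a_at lie left of 0 at all 4 times.

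RNA quality moved with the genotype too. The 3'/5' index of vehicle brains was 0.434 ± 0.016 in Mgmt-/- and 0.313 ± 0.024 in wt brains at 6 hr, and 0.481 ± 0.037 in Mgmt-/- and 0.327 ± 0.036 in wt brains at 24 hr (SD, n = 6 each), without overlap at either time. At 48 hr it was 0.423 in Mgmt-/- and 0.330 in wt brains, and at 168 hr 0.552 in Mgmt-/- and 0.372 in wt brains, with overlap. With the index as a covariate the calls were 1, 1, 0 and 0 at the 4 times, where the share of all probe sets called is not given. Meg3 1452906_at at 6 hr, at 0.75, and Neat1 1428083_at at 24 hr, at 0.75, kept their calls. The calls that were lost differed in how far their values moved. At 24 hr Meg3 1452905_at was at 0.83, Meg3 1429256_at at 0.62, Meg3 1439380_x_at at 0.55 and Snhg11 1434292_at at 0.29. At 6 hr Rian 1427580_a_at was at -0.30, Rian 1452899_at at -0.40 and Meg3 1436713_s_at at -0.48, and at 168 hr Rian 1427580_a_at was at -0.59. The signs thus stayed. The values of Rian 1427580_a_at moved the furthest, first at 168 hr and then at 6 hr, followed by that of Snhg11. The part of RNA quality in the genotype differences was not tested further.

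Genes that work with these RNAs were also called between genotypes in vehicle brains. Of the nuclear speckle proteins, 1 was higher and 5 were lower of 20 tested at 6 hr, and 3 of 16 and 2 of 22 were lower at 24 hr and 48 hr. The splicing factor Srsf1 fell by 0.93, 0.91 and 0.63 at 6, 24 and 48 hr, and the speckle scaffold protein Son fell by 0.66 at 24 hr. The list medians were -0.06, -0.04 and -0.16, against 0.01, 0.03 and 0.01 over the brightest probe set of every gene tested. Of the paraspeckle proteins, 2 of 13, 4 of 16 and 3 of 21 were lower at the same times, and 1 of 21 was higher, Nudt21 at 48 hr by 1.66. Pabpn1, a poly(A)-binding protein of nuclear RNA decay, fell by 0.74, 0.71 and 0.68. Mirg, a further RNA of the Dlk1-Dio3 locus, was higher by 0.42 at 6 hr and 0.58 at 24 hr, the direction of most Meg3 probe sets at those times. Among 22 other long noncoding RNAs tested at 24 hr, Mirg, Zfas1 at 0.53 and Gas5 at 0.40 to 0.46 in 3 probe sets were higher, and Oip5os1 fell by 1.06 and Dlx6os1 fell by 0.63. Zfas1 and Gas5, host genes of small nucleolar RNAs, were named after their values were seen. Of the cell type markers, Cnp of oligodendrocytes fell by 0.64 at 6 hr and 0.43 at 24 hr, and the liver gene Serpina1c fell by 1.62 at 6 hr and 1.46 at 24 hr, and Hpx, also of liver, fell by 0.64 at 24 hr. At 48 hr Gja1 of astrocytes fell by 1.48, Mog of oligodendrocytes fell by 0.42 and Rbfox3 of neurons was higher by 0.53. Over the vehicle arrays of all times, the mean log2 level of 8 neuronal markers was 11.55 in Mgmt-/- and 11.53 in wt brains. In the same order it was 10.89 and 10.98 for 5 astrocyte markers, 11.72 and 11.91 for 4 oligodendrocyte markers, and 4.90 and 5.26 for 12 liver markers. The part of these cell types in the members' differences was not tested.

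Time after the vehicle injection gave no calls among the members. In 6 contrasts of 6, 48 or 168 hr with 24 hr, limma called 0 of the 28 probe sets, beside 0% of all probe sets in 5 contrasts and 0.0333% in wt brains at 6 hr. The ordinary linear model also called 0. At an unadjusted p below 0.05 there were 0, 9 and 1 members at 6, 48 and 168 hr in Mgmt-/- brains and 6, 3 and 15 in wt brains. In the same order the shares of all probe sets were 3.93%, 3.79% and 3.57% in Mgmt-/- and 2.09%, 5.71% and 10.4% in wt brains. The 15 in wt brains at 168 hr were all higher than at 24 hr, and 25 of the 28 differences were positive there, with a median of 0.32. The smallest adjusted p was 0.147, of Meg3 1452906_at at 0.64. With array weights 12 members were called in that contrast, and 13 in number set 2 alone, where the share of all probe sets called is not given. Wt vehicle brains at 24 hr are the same arrays that enter the genotype comparison at 24 hr, so that the low values there are shared by both.

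After MAM, Malat1 probe sets differed in direction within Mgmt-/- brains. These contrasts were used to choose the genes, so that the values are given without a test and nothing is read from the counts. Past the filter and both limits in Mgmt-/- brains were 2 of 15 members at 6 hr (1.83% of all probe sets kept), 2 of 9 at 24 hr (0.699%), 2 of 14 at 48 hr (0.461%) and 1 of 23 at 168 hr (0.493%). In wt brains it was 0 members at each time (0% of all probe sets kept) by limma and 0 by the ordinary linear model. At an unadjusted p below 0.05 there were 0, 1, 7 and 1 members in wt brains. The shares of all probe sets kept were 5.58%, 7.22%, 15.1% and 4.01% in the same order.

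Malat1 1436202_at was higher in MAM brains of Mgmt-/- mice throughout, by 0.79, 0.78, 0.90 and 0.46 at 6, 24, 48 and 168 hr (SE 0.19, 0.18 and 0.14 at the first 3 times). At 6 hr its lowest, median and highest values were 6.90, 7.66 and 8.43 in MAM and 6.45, 6.89 and 7.4 in vehicle brains. At 24 hr they were 7.32, 7.66 and 8.14 in MAM and 6.15, 7.04 and 7.30 in vehicle brains, without overlap. At 48 hr they were 7.11, 7.53 and 8.0 in MAM and 6.03, 6.59 and 7.25 in vehicle brains. In wt brains the same probe set differed by -0.04, -0.18, 0.22 and 0.25. The other Malat1 probe sets pointed down in Mgmt-/- brains, apart from 1429060_at, which differed by -0.03 to 0.21. Malat1 1427285_s_at differed by -1.0, -0.87, -0.79 and -0.98, and at 48 hr had 5.19, 5.37 and 5.63 in MAM and 5.50, 6.13 and 6.73 in vehicle brains. Malat1 1452378_at differed by -0.50 at 24 hr, with 4.94, 5.40 and 5.6 in MAM and 5.41, 5.83 and 6.27 in vehicle brains. The brightest, 1418189_s_at, differed by -0.30, -0.62, -0.32 and -1.17. The 7 Malat1 probe sets thus had no common direction after MAM.

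In wt brains at 48 hr, 26 of the 28 probe sets were higher after MAM, with a median of 0.33. At that time 14 of the 28 had been set aside for differing between number sets, while 78.8% of all probe sets were kept. Malat1 1418189_s_at had 10.76, 11.37 and 11.71 in MAM brains (n = 6), against 8.56, 10.64 and 11.15 in vehicle brains (n = 5), a difference of 1.06. The vehicle array WT.VEH.48.717 held the lowest value, and without it the difference was 0.60. Leaving out the same array moved Malat1 1418188_a_at to 0.75 and 1438403_s_at to 0.51, against 1.20 and 0.90 with it, and Snhg11 1437311_at to 0.67, against 0.95. At the other times 1418189_s_at differed by -0.87, -0.87 and -0.13 at 6, 24 and 168 hr in wt brains. The effect of MAM at 48 hr was lower in Mgmt-/- than in wt brains for 2 Malat1 probe sets past the limits (0.9% of all probe sets kept), by -1.10 for 1427285_s_at and -1.28 for 1452378_at.

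**Figure D4:**
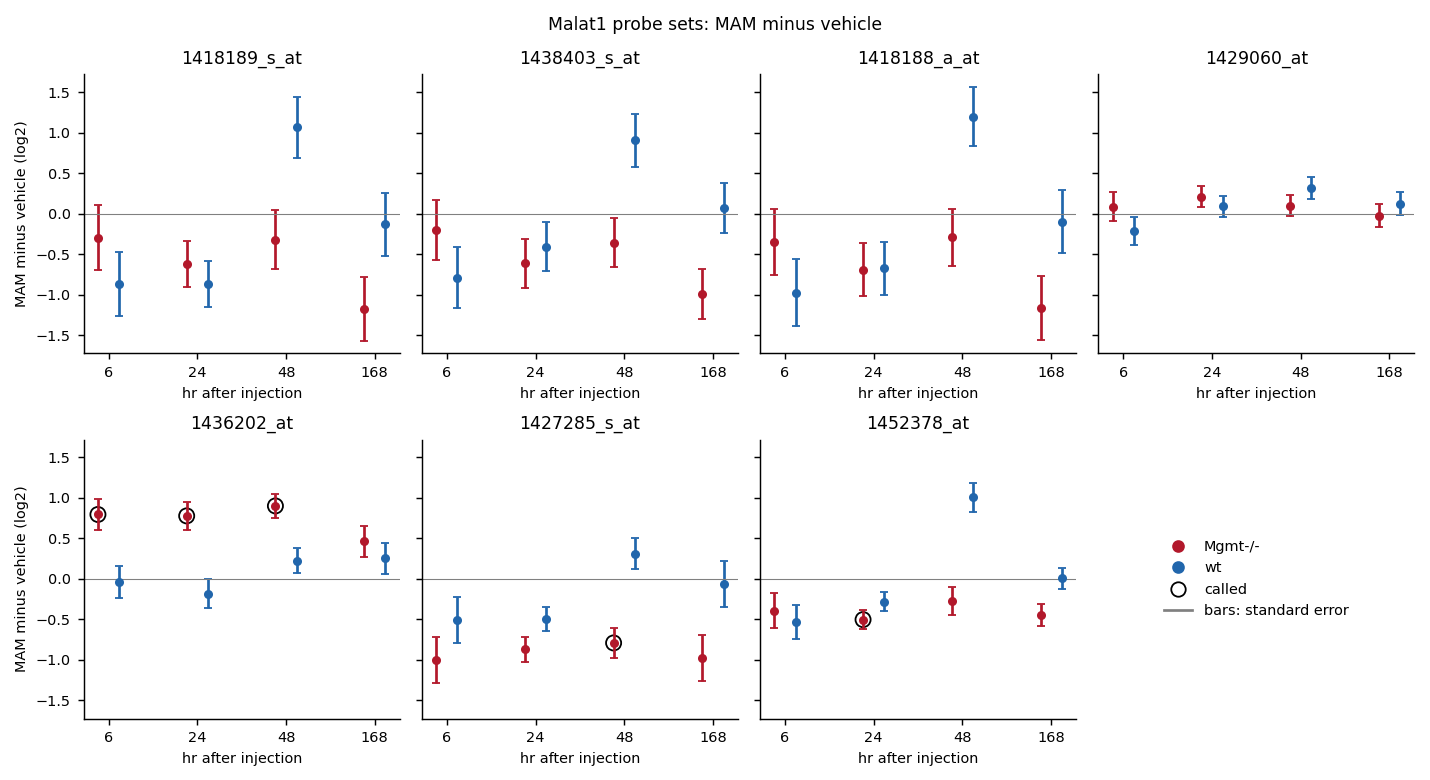
Difference between MAM and vehicle brains in log2 intensity for the 7 Malat1 probe sets at 6, 24, 48 and 168 hr, 1 panel per probe set, as points for Mgmt-/- (red) and wt brains (blue) with bars of 1 standard error and rings around called values. In Mgmt-/- brains 1436202_at lies above 0 and 1427285_s_at below 0 at all 4 times, and in wt brains 1418189_s_at, 1418188_a_at, 1438403_s_at and 1452378_at stand highest at 48 hr.

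Snhg11 1437311_at was lower after MAM in Mgmt-/- brains by -0.75, -1.06, -0.88 and -1.15 on the log2 scale, while the brighter 1434292_at differed by -0.04 to -0.19. At 168 hr 1437311_at had 7.75, 8.39 and 8.87 in MAM brains (n = 5, without MGMT.MAM.168.343), against 8.10, 9.53 and 10.29 in vehicle brains (n = 6), and it differed by -1.60 among number set 2 animals and by -0.62 among number set 1 animals. Meg3 1452183_a_at was the only Meg3 probe set past the limits, at 6 hr, with 10.66, 11.25 and 11.64 in MAM and 9.97, 10.66 and 11.14 in vehicle brains, a difference of 0.60. Rian 1427580_a_at and 1452899_at differed by -0.56 and -0.55 at 48 hr. Neat1 differed by -0.25 to 0.17 and Miat by -0.13 to 0.28 over the 4 times in Mgmt-/- brains.

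The 3'/5' index was higher after MAM in Mgmt-/- brains, by 0.199 at 6 hr (exact permutation test within number sets, two-sided, p = 0.005), 0.146 at 24 hr (exact p = 0.005) and 0.117 at 48 hr (exact p = 0.01), and differed by -0.032 at 168 hr (exact p = 0.66). In wt brains it differed by 0.064 (exact p = 0.125), 0.063 (exact p = 0.02), 0.001 (exact p = 1.0) and 0.070 (exact p = 0.02) at the 4 times. The smallest two-sided p the design allows is 0.005, so that the values at 6 hr and 24 hr in Mgmt-/- brains stand at that limit. In Mgmt-/- MAM brains Alb, of 12 liver markers, was 2.31 higher at 6 hr. Rbfox3, of 8 neuronal markers, fell by 0.68 at 6 hr and 0.80 at 48 hr. Vwf, of 5 endothelial markers, was 0.76 higher at 48 hr. The other markers of these lists are not given here. The part of the index or of these cell types in the values of the members was not tested.

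Over all 93 arrays, after group and number set means were removed, the members followed the index loosely, and some more closely in 1 number set alone. Differences between groups or number sets do not enter these correlations. The correlation with the index ran from -0.39 for Rian 1427580_a_at to 0.20, with a median of -0.06, and was negative for 16 of the 28 probe sets. Number set 2 alone had a median of 0.15 and a range of -0.40 to 0.49, the highest for Snhg11 1434292_at. Number set 1 alone had a median of -0.22 and a range of -0.48 to 0.17, the lowest for Rian 1428055_at. The sign of the median was thus not shared by the sets. Malat1 1438403_s_at stood at -0.36 and Malat1 1452378_at at -0.34. These values share the arrays and are a description.

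The probe sets of 1 gene did not all measure the same thing. After the same centring, the 11 Meg3 probe sets moved together, with a median correlation of 0.80 between pairs and a range of 0.52 to 0.92. The 7 Malat1 probe sets had a median of 0.48 and a range of 0.16 to 0.98. Malat1 1418189_s_at went with 1418188_a_at at 0.98 and with 1438403_s_at at 0.88. The Rian pair 1452899_at and 1427580_a_at reached 0.86, whereas the pair of Snhg11 had 0.30, that of Miat 0.09 and that of Neat1 -0.26. Of the members outside its own gene, Snhg11 1437311_at was most like Malat1 1418189_s_at, at 0.77, ahead of Meg3 1429257_at at 0.74 and Rian 1428055_at at 0.61. The genes most like Malat1 1418189_s_at on the whole array, by centred correlation over 93 arrays, were Ddx6 at 0.87, Akap9 at 0.86, Srpk2 and Wnk1 at 0.82, Map9 and Adgra1 at 0.81, Smc6 at 0.81, and Luc7l3, Thoc2 and Epha4 at 0.80. Srpk2 is a kinase of splicing factors, Luc7l3 a splicing protein and Thoc2 a subunit of an mRNA export complex. Snhg11 1437311_at stood 18th in this order among the 34951 probe sets that name 1 other gene. Arrays share a laboratory and a hybridisation, and the correlations carry no test.

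**Figure D5:**
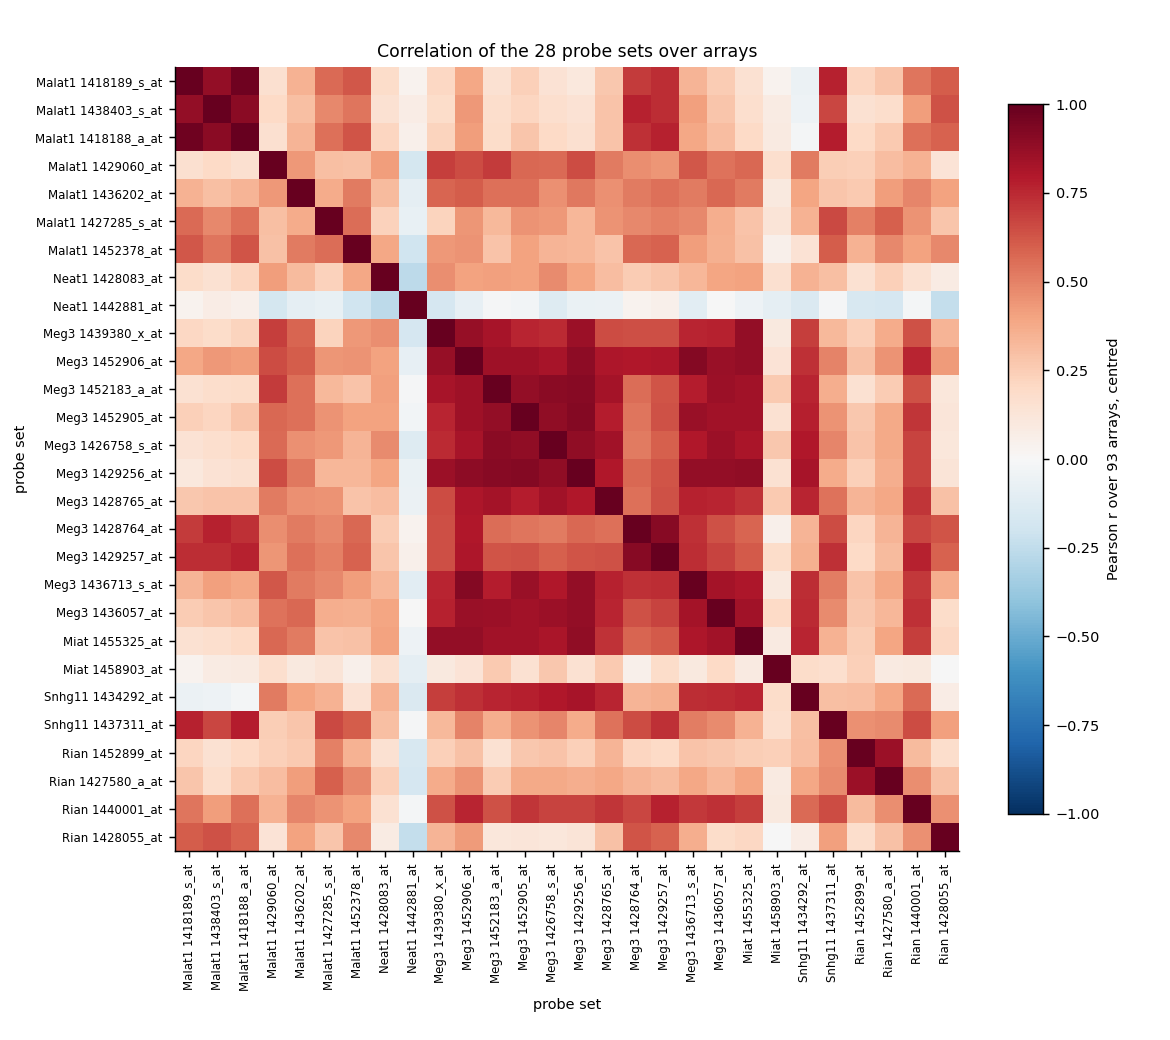
Pearson correlation between the 28 probe sets over 93 arrays after removing the mean of each group and number set, in a grid ordered by gene with a colour scale of -1 to 1. The Meg3 block is uniformly high, and Malat1 1418189_s_at, 1418188_a_at and 1438403_s_at form a block with Snhg11 1437311_at.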

How the data were processed

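The series holds 94 Affymetrix Mouse Genome 430 2.0 arrays labelled as brain, and 93 were used, since 1 carried liver RNA. Per the labels and the study's methods, the authors deposited 1 log2 value per probe set and array from RMA (background correction, quantile normalization, median polish) in the affy package, with versions not given in the sources used here. These log2 values were used unchanged. Gene names came from the platform annotation. Array signals carry no read depth, so precision is limited by how many arrays each group has.

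The 6 genes and the gene lists were chosen with earlier results of these data known. The rule for named genes was every member probe set, with values for the brightest of each gene and for those called and the others by range, up to 3 called genes per list and contrast, and the 10 genes most like Malat1. Some called members are given here by their difference alone. The design followed the study's methods. Each time was fitted alone with genotype, agent, their interaction and number set in limma 3.58.1 (R 4.3.3, with the package data.table, version 1.17.8), after probe sets with a laboratory interaction at p below 0.15 in an ordinary linear model were set aside. Vehicle arrays were fitted together for time and number set without that filter. Benjamini-Hochberg adjustment ran over all probe sets tested, and a call needed an adjusted p below 0.05 and a fold above 1.3. The animals of a group are separate mice, and p-values measure the spread between them. The index was compared by exact permutation within number sets (Python 3.11.15, numpy 2.4.6, pandas 2.3.3, scipy 1.17.1, figures with matplotlib 3.10.9). Correlations carry no p because the genes were chosen with results known. The scripts were tested on simulated data. Alternatives were no laboratory filter, an ordinary linear model, array weights, cyclic loess, the index as a covariate, each number set alone, each genotype alone, no fold limit, no probe sets with a mean below 6, the liver RNA array kept, and each array left out.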

Additional observations from a re-analysis of the deposited data

Results flagged for a closer look

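In 96 groups of 5 or 6 arrays, taken over the brightest probe set of each gene, 2 held an array that stood apart from the rest of its group, where chance gives about 1 in 20. Malat1 1418189_s_at was 9.19 on array WT.MAM.168.145, and the other 4 animals lay between 10.95 and 11.17. Neat1 1428083_at was 10.21 on array MGMT.VEH.6.903, and the other 5 lay between 8.26 and 8.96.

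The effect of MAM at 48 hr differed between Mgmt-/- and wt brains for Malat1 1427285_s_at by -1.10 and for Malat1 1452378_at by -1.28, in a contrast that was in view when the genes were chosen. The gap between number sets in vehicle brains was larger in Mgmt-/- than in wt mice for Malat1 1438403_s_at by 1.60, Malat1 1418188_a_at by 1.29, Malat1 1418189_s_at by 1.18, Meg3 1436713_s_at by 0.94, Snhg11 1437311_at by 0.74, Meg3 1428764_at by 0.72 and Meg3 1426758_s_at by 0.44. In the same arrays the 3'/5' index differed between number set 2 and number set 1 by -0.070 in Mgmt-/- and by 0.029 in wt mice, and its part was not tested.

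The array MGMT.MAM.168.343, which carried liver RNA and entered no comparison, had Neat1 above every brain array. Neat1 1428083_at was 11.25 there, against 7.93 to 10.21 on the 93 brain arrays, and Neat1 1442881_at was 6.81, against 5.73 to 6.75.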

How the results depend on the processing

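The counts below are member probe sets called, set beside the values given above. The share of all probe sets called under each setting is not given, so that the counts do not set the members apart. For Mgmt-/- against wt in vehicle brains at 6, 24, 48 and 168 hr (4, 5, 0 and 1), number set 1 alone gave 0, 1, 1 and 3 and number set 2 alone 12, 17, 10 and 3. With the 3'/5' index as a covariate the calls were 1, 1, 0 and 0. Dropping the laboratory filter gave 11, 4 and 2 calls at 24, 48 and 168 hr. Array weights gave 7 at 6 hr and 1 at 48 hr, cyclic loess 3 at 24 hr, leaving out dim probe sets 1 at 48 hr, and keeping the liver RNA array 0 at 168 hr. For MAM against vehicle in Mgmt-/- brains (2, 2, 2 and 1), number set 1 alone gave 0, 1, 1 and 0 and number set 2 alone 4, 9, 1 and 6. The index as a covariate gave 0, 0 and 1 at 6, 24 and 48 hr, cyclic loess 1 at 6 hr and 1 at 48 hr, the ordinary linear model 1, 1 and 0 at 24, 48 and 168 hr, no laboratory filter 4 and no dim probe sets 1 at 24 hr, and the liver RNA array 0 at 168 hr. For MAM in wt brains (0 at each time), number set 2 alone gave 4 at 24 hr and 4 at 48 hr, and array weights 1 at 48 hr. For time in vehicle brains (0), array weights gave 1 in wt at 6 hr and 12 in wt at 168 hr, and number set 2 alone 1 in Mgmt-/- at 6 hr and 13 in wt at 168 hr. Between number sets (21), wt vehicle arrays alone gave 11, and Malat1 1438403_s_at turned to -0.0509 there. For the number set difference by genotype (7), a test added after seeing the data, the index as a covariate gave 11. The median correlation with the index was 0.153 in number set 2 alone. The causes were not tested.

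With each array left out in turn, the genotype counts ran from 3 to 8, 2 to 9, 0 to 1 and 0 to 1 at 6, 24, 48 and 168 hr. The 6 hr count was 8 without WT.VEH.6.103. The 24 hr count was 2 without WT.VEH.24.107 or MGMT.VEH.24.309, and 9 without MGMT.MAM.24.331. At 168 hr Rian 1427580_a_at was set aside by the laboratory filter, and so not tested, without MGMT.VEH.168.319, MGMT.VEH.168.321, MGMT.MAM.168.967, WT.MAM.168.143 or WT.MAM.168.743. In the 17 fits with 1 array left out where it was tested, it kept its call, at -0.89 to -0.81. MAM counts ran from 1 to 2, 0 to 2, 0 to 2 and 0 to 1 in Mgmt-/- brains and from 0 to 0, 0 to 0, 0 to 1 and 0 to 0 in wt brains, time counts from 0 to 0, number set counts from 21 to 23, and the number set difference by genotype from 4, without MGMT.VEH.24.309, to 9. Over all alternatives and left-out arrays, single values were counted only where the probe set was still tested. Of these, 1142 of 1153 for number set and 271 of 300 for genotype kept their direction and call. For MAM, 204 of 210 kept their direction and moved by less than the SD within groups and number sets, without regard to the call. No paired analysis was possible because animal numbers are not shared between groups. Dim probe sets such as Rian 1428055_at and Miat 1458903_at lie near the background of the array, which limits their differences.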
